A study of Mus musculus with 12 samples.

Results

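Voltage-gated calcium channels let calcium into a neuron when its membrane depolarizes, and that calcium drives transmitter release, burst firing and signalling to the nucleus. Each channel is built around a pore-forming alpha1 subunit, which sets its class, and carries auxiliary subunits, among them alpha2delta, which take the pore to the membrane and to synapses. The L-type pores (CaV1) couple activity to transcription, the P/Q-, N- and R-type pores (CaV2) serve transmitter release and dendritic calcium entry, and the T-type pores (CaV3) open near rest and support bursting. The 10 genes described here were the rows of the count matrices with the symbols of 2 L-type pores (Cacna1c, Cacna1d), 3 CaV2 pores (Cacna1a, P/Q-type; Cacna1b, N-type; Cacna1e, R-type), 3 T-type pores (Cacna1g, Cacna1h, Cacna1i) and 2 alpha2delta subunits (Cacna2d1, Cacna2d3), of 55335 features in all. The rule uses their names and no measured value, but it was set with earlier results of these data known.

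Nuclei came from the dissected cortex of mice at postnatal day 21, 6 wild type (WT) and 6 heterozygous (Het) for a frameshift allele of Myt1l (S710fsX), a neuronal zinc finger transcription factor, all on C57BL/6J. Each genotype had 3 males and 3 females. As newborns, animals of both genotypes had received AAV9 carrying the Calling Cards reagents hyPB and H2b-tdT-SRT into the ventricles, so no group was free of virus. RNA of single nuclei was barcoded with the Scale Biosciences kit, which carried every animal on the same plates, and the litters of the animals were not given in the labels.

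Of 78743 deposited barcodes, 33116 (42.1%) passed the quality limits and were used, 1551 to 3182 for each WT animal and 2010 to 4414 for each Het animal. The median was 3018 to 3290 unique molecular identifiers (UMIs) per nucleus in WT and 2974 to 3398 in Het animals, and the summed depth was 5059340 to 10697626 UMIs in WT and 6940706 to 14016469 in Het. No barcode occurred in more than 1 animal. Classes were gated on marker UMIs that held none of the 10 genes, and a class is called "-like" because it rests on those markers. The 16 classes used were 11 neuronal ones, namely L2/3 IT, L4/5 IT (intratelencephalic), L5 NP (near-projecting), L6 CT (corticothalamic), Car3 (a deep type of the claustrum and nearby cortex), DG (dentate granule) and MSN (striatal medium spiny) as well as the Pvalb, Sst, Vip and Lamp5 interneurons, and 5 non-neuronal ones. They held 201 (fibroblast-like) to 4877 (L6 CT-like) nuclei, and between 0 and 15.6% of the nuclei of a class lay near the limits of its gate. The DG-like and MSN-like nuclei had the markers of hippocampus and striatum although the tissue was labelled cortex. All 21022 excitatory and all 8125 inhibitory nuclei were also summed, and 6351 and 1695 of them, respectively, passed the gate of no single neuronal class.

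Myt1l itself was called in 0 of 18 sums of nuclei (edgeR, 4 with an unadjusted p under 0.05), and its estimate was negative in 1 of 11 neuronal classes, DG-like (-0.01, SE 0.10), and in astrocyte-like (-0.30, SE 0.39), oligodendrocyte-like (-0.11, SE 0.42), OPC-like (oligodendrocyte precursor; -0.35, SE 0.21) and fibroblast-like nuclei (-0.44, SE 1.02). In excitatory nuclei its lowest, median and highest levels were 896, 968 and 1072 CPM (the usual scaling of counts to a common library total) in WT and 1029, 1088 and 1185 in Het (log2 fold change 0.14, SE 0.05, edgeR adjusted p = 0.448). In L6 CT-like nuclei the groups did not overlap, as for 0.883% of all genes tested there, with 1100, 1181 and 1293 CPM in WT and 1339, 1387 and 1559 in Het (log2 fold change 0.22, SE 0.06, adjusted p = 0.104). These counts did not check the genotype labels. Of the 12 animals, the 3 with the largest share of inhibitory nuclei in no named class were grouped after seeing the data. WT male 2, Het female 2 and Het male 3 had shares of 36.8, 27.8 and 25.5%, against 13.1 to 22.5% in the other 9.

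The level of a gene was its CPM in the counts summed over the nuclei of a class in 1 animal, and levels were compared between classes within a gene, never between genes. Classes next to each other in the order of the mean were compared with an exact two-sided sign-flip permutation test over animals, adjusted (Benjamini-Hochberg) over all 150 neighbour pairs of the 10 genes. Of these pairs 33 differed, against 17 with the 3 animals left out, and 0.00488 was the smallest adjusted p that occurred, from an unadjusted p of 0.000488, the smallest that 12 animals allow. Every gene had counts in every neuronal class, although some animals had 0 for the T-type pores in some classes. The range over the 11 neuronal classes differed widely. The highest class mean was 1.65 times the lowest for Cacna1d and 122 times the lowest for Cacna2d1. The lowest mean of Cacna2d1 was near the share of excitatory marker RNA in the same nuclei, as given with its values. The ratio of 122 depended on the processing and was 80.4 without doublet removal and 83.4 with no upper limits.

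**Figure D1:**
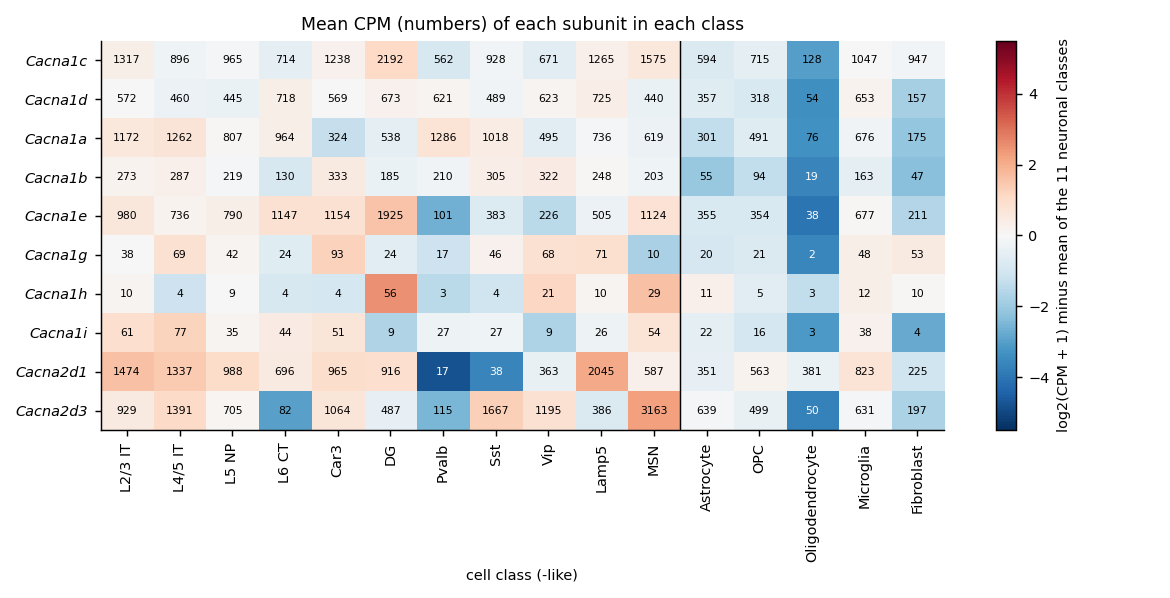
Mean CPM of the 10 subunits (rows, numbers in the cells) in 11 neuronal and 5 non-neuronal classes (columns), coloured by the difference in log2(CPM + 1) from the mean of the neuronal classes. Cacna2d1 runs from 16.8 CPM in Pvalb-like to 2045 CPM in Lamp5-like nuclei, while Cacna1d stays between 440 and 725 CPM in the neuronal classes.

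Promoter windows of both alpha2delta genes and of Cacna1e are shown because the class differences described here turn on their levels. RefSeq windows from 250 bases before to 50 after the start (GRCm38.p6) matched 7 of the 10 genes, and none was held for Cacna1a, Cacna1g and Cacna1h, the last of which varied 22.2-fold between neuronal classes against 19.0-fold for Cacna1e. The windows lie at chr5:15934441-15934740 on the plus strand for Cacna2d1, chr14:29721815-29722114 on the minus strand for Cacna2d3 and chr1:154725871-154726170 on the minus strand for Cacna1e. The Cacna1e window lies at an internal start, 159 kb inside the annotated gene, while the other windows lie at the annotated 5′ ends of their genes. Each is printed 5′ to 3′ with CG dinucleotides in capitals.
Cacna2d1: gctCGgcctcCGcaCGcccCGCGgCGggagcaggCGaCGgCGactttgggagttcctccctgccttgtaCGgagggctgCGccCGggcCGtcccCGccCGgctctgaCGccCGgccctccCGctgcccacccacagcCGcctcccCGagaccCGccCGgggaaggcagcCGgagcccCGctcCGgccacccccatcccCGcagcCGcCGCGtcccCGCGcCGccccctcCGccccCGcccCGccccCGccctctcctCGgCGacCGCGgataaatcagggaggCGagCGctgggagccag
Cacna2d3: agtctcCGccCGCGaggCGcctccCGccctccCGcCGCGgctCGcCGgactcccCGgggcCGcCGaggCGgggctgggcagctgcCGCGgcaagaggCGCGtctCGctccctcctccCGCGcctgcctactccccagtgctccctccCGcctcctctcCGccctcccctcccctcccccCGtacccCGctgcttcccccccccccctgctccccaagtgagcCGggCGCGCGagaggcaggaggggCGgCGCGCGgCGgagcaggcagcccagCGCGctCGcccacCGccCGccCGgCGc
Cacna1e: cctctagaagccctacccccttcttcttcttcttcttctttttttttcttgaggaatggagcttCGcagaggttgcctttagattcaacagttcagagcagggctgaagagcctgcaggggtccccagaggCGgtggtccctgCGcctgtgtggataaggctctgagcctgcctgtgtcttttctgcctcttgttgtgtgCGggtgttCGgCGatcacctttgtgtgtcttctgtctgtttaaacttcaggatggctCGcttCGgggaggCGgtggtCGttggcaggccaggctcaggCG
They held 42, 41 and 11 CG dinucleotides, respectively, against a median of 7 (quartiles 3 and 20) over 32851 RefSeq promoter windows. AAGTT, the core motif bound by MYT1 family zinc fingers, was searched on both strands (as AAGTT and AACTT). It had 0 matches in each alpha2delta window and 1 in that of Cacna1e, and 39.3% of all promoter windows of this length held it. A match or its absence describes these letters only.

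Among the L-type pores, Cacna1c was highest in DG-like nuclei. Its lowest, median and highest levels over the 12 animals were 1966, 2154 and 2506 CPM in DG-like, 1261, 1604 and 1838 CPM in MSN-like, and 1185, 1300 and 1470 CPM in L2/3 IT-like nuclei. DG-like exceeded MSN-like nuclei by 0.48 ± 0.15 (SD) on the log2 scale, and MSN-like exceeded L2/3 IT-like nuclei by 0.25 ± 0.10, each in 12 of 12 animals (adjusted permutation p = 0.00488). Pvalb-like nuclei had the lowest neuronal level, 492, 544 and 768 CPM, and their range did not overlap that of DG-like nuclei. No other tested pair of neighbours that were both neuronal differed.

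Measured in CPM and not as a ratio, Lamp5-like nuclei had the widest spread of Cacna1c between animals, from 684 to 2130 CPM with a median of 1039. The 3 animals with the most unnamed inhibitory nuclei were the 3 highest, at 1898 to 2130 CPM against 684 to 1413 CPM in the other 9. The same 3 animals were also highest in Lamp5-like nuclei for Cacna1d (822 to 881 CPM against 608 to 786), Cacna1e (638 to 1024 against 290 to 500), Cacna1g (89.8 to 101 against 35.6 to 85.4) and Cacna1i (49.8 to 68.9 against 4.45 to 31.4). They were low there for Cacna2d3 (207 to 275 CPM against 259 to 601), Cacna1a (560 to 607 against 603 to 930) and Cacna1b (178 to 236 against 226 to 301), with ranges that overlap those of the other 9. Of the 10 genes 5 did not overlap between these 3 animals and the rest in Lamp5-like nuclei, against 8.95% of all 5039 genes tested there, so the separation is not limited to these genes. The share of Lamp5-like among inhibitory nuclei was 18.6 to 22.1% in these animals and 11.1 to 19.1% in the others. Whether the animals differed in dissection was not tested.

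Cacna1d, the L-type pore that opens at the more negative voltages, was the most even of the 10 genes. It ran from 341, 439 and 529 CPM in MSN-like to 608, 712 and 881 CPM in Lamp5-like nuclei. Car3-like nuclei exceeded the next class, Sst-like, by 0.22 ± 0.17 on the log2 scale (11 of 12 animals, adjusted permutation p = 0.0153), and no other of the 9 tested pairs of neighbours that were both neuronal differed. The Car3-like mean of 569 CPM fell to 480 CPM with no upper limits, and Sst-like nuclei had 444 to 566 CPM in the nuclei used. The class with the lowest mean depended on the animals used, since L5 NP-like nuclei were lowest in WT animals alone, and with the 3 animals left out L6 CT-like nuclei were highest.

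Cacna1a, the P/Q-type pore of fast transmitter release, was highest in Pvalb-like and L4/5 IT-like nuclei. Levels were 1173, 1264 and 1413 CPM (lowest, median, highest) in Pvalb-like and 1104, 1278 and 1394 CPM in L4/5 IT-like nuclei, and these classes did not differ (log2 difference 0.03 ± 0.12, adjusted permutation p = 0.674). From there the level fell from class to class, with L4/5 IT-like above L2/3 IT-like nuclei by 0.11 ± 0.09 (11 of 12 animals, adjusted p = 0.0209) and L2/3 IT-like above Sst-like nuclei by 0.20 ± 0.11 (11 of 12, 0.00916). Sst-like exceeded L6 CT-like nuclei by 0.08 ± 0.07 (10 of 12, 0.0209), and L6 CT-like exceeded L5 NP-like nuclei by 0.26 ± 0.11 (12 of 12, 0.00488), all by the same permutation test. Car3-like nuclei had the lowest neuronal level, 136, 307 and 654 CPM, which fell to a mean of 132 ± 105 CPM (SD, n = 11) under a stricter gate.

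For Cacna1b, the N-type pore, none of the 9 tested pairs of neighbours that were both neuronal differed. L6 CT-like and DG-like nuclei were separated in the order by microglia-like nuclei and so were not tested, and DG-like were above L6 CT-like nuclei in 12 of 12 animals. The range was 118, 125 and 155 CPM in L6 CT-like to 235, 326 and 441 CPM in Car3-like nuclei, which do not overlap. In WT animals alone, with no upper quality limits and with the 3 animals left out, Vip-like nuclei had the highest mean in place of Car3-like nuclei.

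Cacna1e, the R-type pore, was highest in DG-like nuclei and low in interneurons. DG-like nuclei had 1709, 1949 and 2157 CPM, above every other class without overlap, and exceeded Car3-like nuclei by 0.75 ± 0.25 on the log2 scale (12 of 12 animals, adjusted permutation p = 0.00488). MSN-like exceeded L2/3 IT-like nuclei by 0.20 ± 0.10, and L2/3 IT-like exceeded L5 NP-like nuclei by 0.31 ± 0.07, again in 12 of 12 animals (adjusted permutation p = 0.00488). The means of L2/3 IT-like and L5 NP-like nuclei were 980 and 790 CPM, but 936 and 928 CPM with no upper limits. Under the stricter gate the L5 NP-like mean was 681 CPM. Interneurons were lower, with medians of 429 CPM in Lamp5-like, 370 CPM in Sst-like, 239 CPM in Vip-like and 101 CPM in Pvalb-like nuclei. The Pvalb-like values, 68.2 to 141 CPM, were 9.84% of the excitatory mean, while the excitatory marker genes were at 2.11% of their own excitatory level in the same nuclei. These markers were also used in the gate, and the part of RNA from other nuclei in the Pvalb-like values was not tested.

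**Figure D2:**
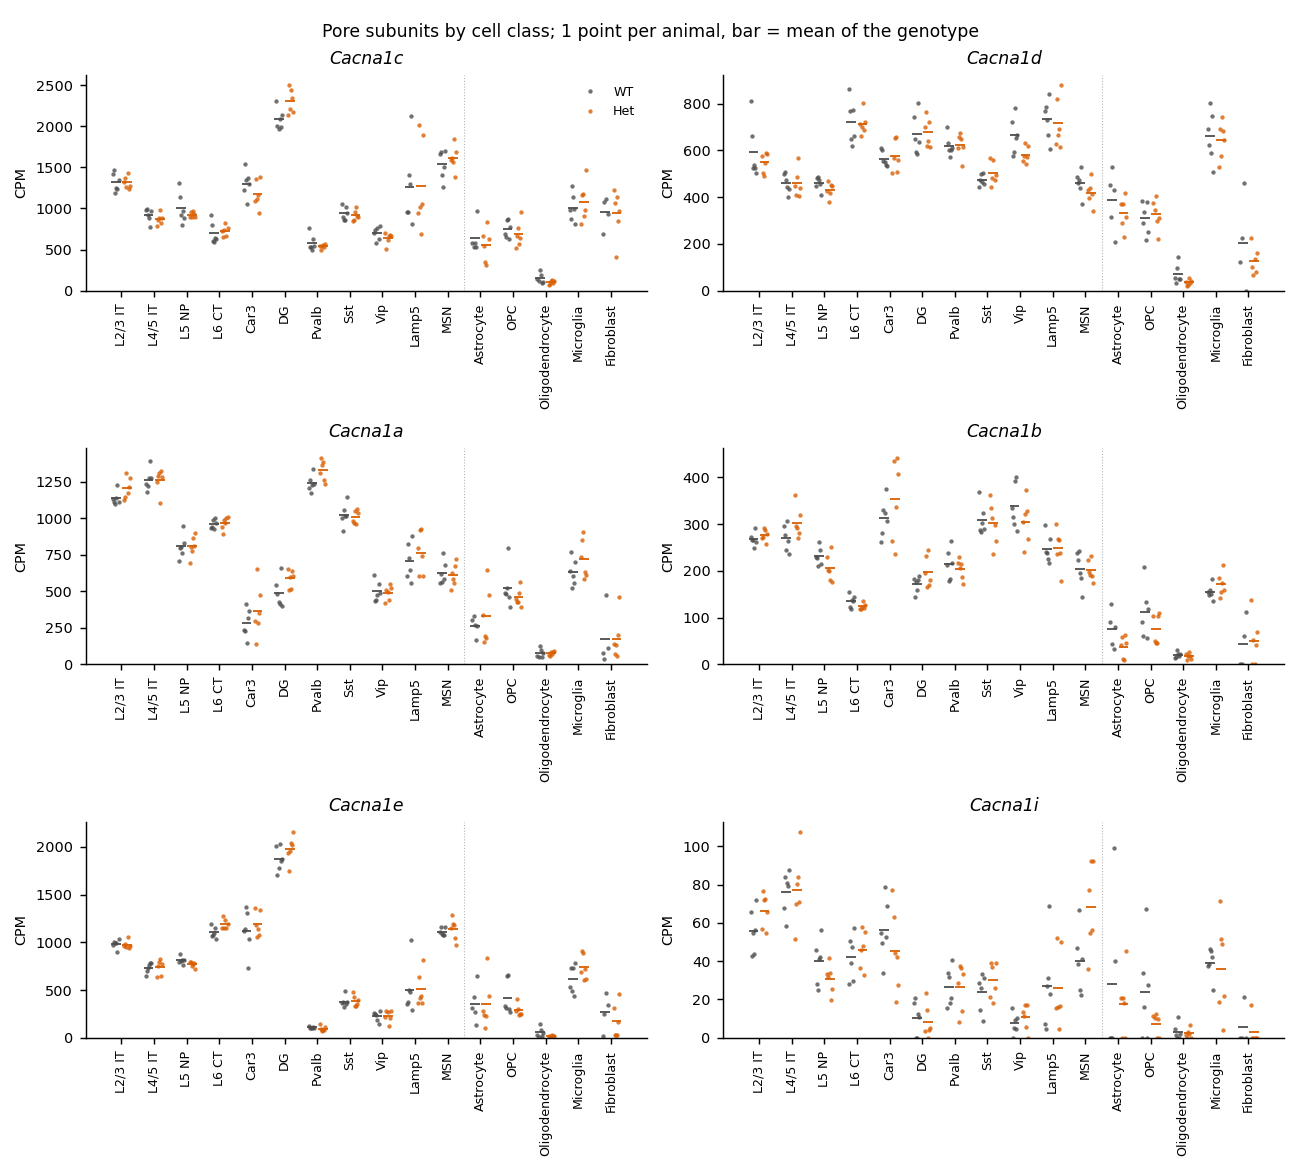
CPM (vertical axes, starting at 0) of 6 pore subunits in 11 neuronal and 5 non-neuronal classes, separated by a dotted line; each point is 1 animal, grey WT and orange Het, and each bar the genotype mean. Cacna1c and Cacna1e peak in DG-like nuclei at means of 2192 and 1925 CPM, Cacna1a in Pvalb-like and L4/5 IT-like nuclei, and the genotypes lie side by side in each class.

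The values of the T-type pores rest on few UMIs per animal. Cacna1g had its highest mean in Car3-like nuclei (43.8, 92.4 and 165 CPM) and its lowest neuronal mean in MSN-like nuclei (3.22, 7.56 and 24.9 CPM). These ranges did not overlap, but none of the 8 tested pairs of neighbours that were both neuronal differed. Sst-like and Vip-like nuclei, with non-neuronal classes between them in the order, were not tested, and Vip-like were above Sst-like nuclei in 11 of 12 animals. Cacna1h was highest in DG-like nuclei at 31.4, 58.3 and 87.7 CPM, above MSN-like nuclei at 19.1, 29.8 and 42.3 CPM (log2 difference 0.91 ± 0.53, 12 of 12 animals, adjusted permutation p = 0.00488). Vip-like nuclei spread from 0 to 46.6 CPM with a median of 17.0, L2/3 IT-like nuclei had 6.46, 9.45 and 19.7 CPM and L5 NP-like nuclei 6.10, 8.55 and 15.5 CPM, the latter classes with no animal at 0. Its median was 2.72 CPM in Pvalb-like and 3.30 CPM in Sst-like nuclei, with animals at 0 in both. Low levels were not limited to these interneurons, since Car3-like nuclei had 0 to 13.5 CPM and L4/5 IT-like nuclei 0 to 9.52 CPM. Under the stricter gate L4/5 IT-like nuclei had the lowest neuronal mean of Cacna1h, 2.12 CPM.

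Cacna1i was highest in L4/5 IT-like nuclei at 51.5, 79.7 and 108 CPM, followed by L2/3 IT-like nuclei at 43.0, 61.1 and 76.5 CPM. The difference between them was 0.32 ± 0.37 on the log2 scale (10 of 12 animals, adjusted permutation p = 0.0425). DG-like and Vip-like nuclei were lowest, with medians of 7.85 and 9.96 CPM and animals at 0 in both, and which of them had the lower mean changed with the processing. The T-type pores thus had different leading classes, Car3-like for Cacna1g, DG-like for Cacna1h and L4/5 IT-like for Cacna1i.

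In the nuclei used, the alpha2delta subunits differed most between neuronal classes, with highest means 122 (Cacna2d1) and 38.7 times (Cacna2d3) the lowest. With no upper limits the ratio of Cacna2d3 was 20.9, below those of Cacna1h (23.9) and Cacna1e (21.6). Cacna2d1, which encodes alpha2delta-1, a binding site of gabapentin, was highest in Lamp5-like nuclei at 1632, 2045 and 2258 CPM. The order then ran through L2/3 IT-like (1379, 1484 and 1574 CPM), L4/5 IT-like (1204, 1340 and 1457 CPM) and L5 NP-like nuclei (828, 983 and 1117 CPM). Each step in this order passed the permutation test, by 0.47 ± 0.14 (12 of 12 animals, adjusted p = 0.00488), 0.14 ± 0.10 (10 of 12, 0.0127) and 0.44 ± 0.15 (12 of 12, 0.00488) on the log2 scale. L6 CT-like nuclei also exceeded MSN-like nuclei, by 0.25 ± 0.19 (11 of 12 animals, adjusted permutation p = 0.0116). The order changed with no upper limits, where Car3-like nuclei had a mean of 1260 CPM, above L5 NP-like nuclei at 1123 CPM. In the nuclei used these means were 965 and 988 CPM.

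Sst-like and Pvalb-like interneurons lay far below the other neuronal classes for Cacna2d1. Sst-like nuclei had 20.5, 38.5 and 83.0 CPM and Pvalb-like nuclei 4.82, 15.8 and 31.2 CPM, whereas Vip-like nuclei, the next neuronal class, had 284, 376 and 486 CPM. Sst-like exceeded Pvalb-like nuclei by 1.20 ± 0.88 on the log2 scale (12 of 12 animals, adjusted permutation p = 0.00488). As a share of the excitatory mean, Cacna2d1 was at 3.58% in Sst-like and 1.56% in Pvalb-like nuclei. Excitatory marker genes were at 3.12 and 2.11% there, but these markers were also used in the gate. The part of RNA from other nuclei in these levels was not tested. Among interneurons the gene thus ran from the highest of all classes in Lamp5-like to the lowest of all in Pvalb-like nuclei.

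Cacna2d3, encoding alpha2delta-3, had another order. MSN-like nuclei had 2801, 3114 and 3899 CPM, above every other class, and exceeded Sst-like nuclei (1377, 1674 and 1938 CPM) by 0.93 ± 0.24 on the log2 scale (12 of 12 animals, adjusted permutation p = 0.00488). Sst-like exceeded L4/5 IT-like nuclei by 0.27 ± 0.21 (12 of 12, 0.00488), Car3-like exceeded L2/3 IT-like by 0.19 ± 0.17 (10 of 12, 0.0176) and L2/3 IT-like exceeded L5 NP-like nuclei by 0.43 ± 0.28 (12 of 12, 0.00488). Pvalb-like and L6 CT-like nuclei were lowest at 58.9, 88.9 and 205 CPM and 53.3, 74.9 and 162 CPM, and did not differ (0.43 ± 0.70, adjusted permutation p = 0.148). With no upper quality limits the L6 CT-like mean was 286 ± 50.5 CPM (SD, n = 12) in place of 81.8 ± 30.5, and Pvalb-like nuclei were then lowest at 160 CPM.

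The Sst-like class was thus next to lowest of the neuronal classes for Cacna2d1 and next to highest for Cacna2d3. The Lamp5-like class led for Cacna2d1 and had 386 ± 142 CPM of Cacna2d3. Across the 11 neuronal classes, log2 mean levels of Cacna2d1 and Cacna2d3 had a Pearson correlation of 0.20. The highest correlation among the 10 genes was between Cacna1c and Cacna1e (0.76), followed by Cacna1e and Cacna2d1 (0.73), and the lowest between Cacna1d and Cacna2d3 (-0.71). The points are 11 classes from the same 12 animals and share their libraries, and the correlations are given as a description only.

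**Figure D3:**
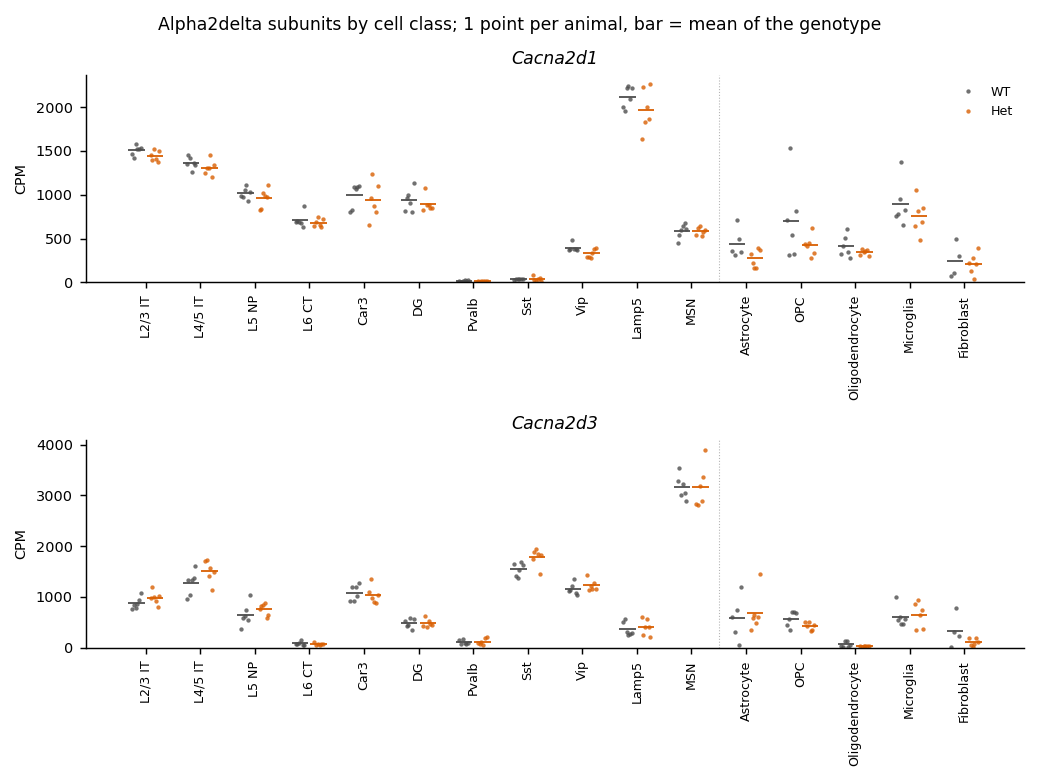
CPM (vertical axes, starting at 0) of the alpha2delta subunit genes in 11 neuronal and 5 non-neuronal classes; each point is 1 animal, grey WT and orange Het, and each bar the genotype mean. Cacna2d1 leads in Lamp5-like nuclei (mean 2045 CPM) and is close to 0 in Pvalb-like and Sst-like nuclei, while Cacna2d3 leads in MSN-like nuclei (mean 3163 CPM).

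Marker genes of neurons were also counted in non-neuronal classes, and the source of this RNA was not tested. Excitatory markers summed to 4.98% of their excitatory level in oligodendrocyte-like nuclei, 8.09% in OPC-like, 14.5% in astrocyte-like, 15.8% in fibroblast-like and 43.5% in microglia-like nuclei. Inhibitory markers summed to 2.66% of their inhibitory level in oligodendrocyte-like, 24.0% in OPC-like, 25.3% in astrocyte-like, 5.18% in fibroblast-like and 43.5% in microglia-like nuclei. Levels of the 10 genes in microglia-like nuclei are therefore not read as their own. In oligodendrocyte-like nuclei, 8 of the 10 genes were at 3.73 to 12.3% of the excitatory mean. Cacna2d1 stood above these with 284, 352 and 606 CPM, a mean of 35.4% of the excitatory level, and Cacna1h, at 29.3%, had a median of only 2.05 CPM.

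Oligodendrocyte-like levels moved with the quality filters. Mean Cacna1e was 38.3 CPM in the nuclei used, 121 CPM without the removal of doublets and 194 CPM without upper limits, and mean Cacna2d3 was 49.7, 120 and 234 CPM. Cacna2d1 was at 381 CPM in the nuclei used, 427 CPM without doublet removal and 550 CPM without upper limits. OPC-like nuclei had 282, 442 and 1534 CPM of Cacna2d1, and astrocyte-like nuclei, measured in 11 animals, 161, 342 and 708 CPM. Neither class differed from its neighbours in the order, and the part of RNA from other nuclei in these levels was not tested.

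Set against each other within each animal, inhibitory and excitatory nuclei differed in 6 of the 10 genes. Counts were summed over all nuclei of each kind and tested with edgeR with the animal as a block, and a gene was called where the adjusted p was under 0.05 and the fold change exceeded 0.2 on the log2 scale in either direction. By this rule 51.7% of all 12131 genes tested were called, 25.7% higher and 25.9% lower in inhibitory nuclei, so that 2 of 10 genes higher and 4 of 10 lower lay near the share of all genes. The median log2 fold change of the 10 genes was 0.01.

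Cacna1e was lower in inhibitory nuclei by the most. It had 1005, 1028 and 1069 CPM in excitatory and 384, 486 and 631 CPM in inhibitory nuclei, without overlap, as for 17% of all genes tested (log2 fold change -1.12, SE 0.06, edgeR adjusted p = 1.04e-13). Cacna2d1 had 980, 1066 and 1195 CPM in excitatory and 410, 555 and 930 CPM in inhibitory nuclei, also without overlap (-0.83, SE 0.11, adjusted p = 3.52e-05). Cacna1i (-0.62, SE 0.08, adjusted p = 1.47e-07) and Cacna1a (-0.24, SE 0.04, adjusted p = 9.94e-06) were lower in inhibitory nuclei of 12 of 12 animals although the groups overlapped. In the inhibitory sum the 3 animals with the most unnamed inhibitory nuclei had 904 to 930 CPM of Cacna2d1, against 410 to 728 CPM in the other 9. With these 3 left out the log2 fold changes were -1.21 for Cacna1e (SE 0.04, edgeR adjusted p = 3.79e-20), -1.03 for Cacna2d1 (SE 0.06, 2.69e-11) and -0.77 for Cacna1i (SE 0.07, 3.24e-10), and Cacna1a was lower by less than the fold required (-0.18, adjusted p = 1.08e-04).

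Cacna2d3 was higher in inhibitory nuclei of 12 of 12 animals, with 453, 652 and 875 CPM in excitatory and 825, 1086 and 1357 CPM in inhibitory nuclei (log2 fold change 0.70, SE 0.14, edgeR adjusted p = 7.58e-04). It was 0.80 (SE 0.17, adjusted p = 0.00298) with the 3 animals left out, and in the 6 WT animals alone it was not called (0.60, SE 0.21, adjusted p = 0.0671). The inhibitory sum of 8125 nuclei held 1354 MSN-like nuclei, the class with the highest Cacna2d3 (mean 3163 CPM). Sst-like nuclei also lay above excitatory nuclei, but Pvalb-like nuclei (58.9 to 205 CPM) lay below them. The part of the MSN-like nuclei in the difference was not tested. Cacna1h was called higher (0.27, SE 0.10, adjusted p = 0.0166), but turned to -0.03 (adjusted p = 0.742) with no upper limits and was not called under 6 other settings, the omission of WT male 2 among them (0.23, adjusted p = 0.051). Cacna1b, Cacna1c, Cacna1d and Cacna1g were not called, with log2 fold changes from -0.04 to 0.14. With no upper limits Cacna1g was called lower (-0.28, adjusted p = 0.00329). The 3 animals also had the highest inhibitory Cacna1c, 1535 to 1832 CPM against 946 to 1115 CPM in the other 9, and the lowest Cacna1a, 709 to 777 CPM against 819 to 956 CPM. In that sum 6 of the 10 genes and 5.55% of all genes did not overlap between these 3 animals and the rest.

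**Figure D4:**
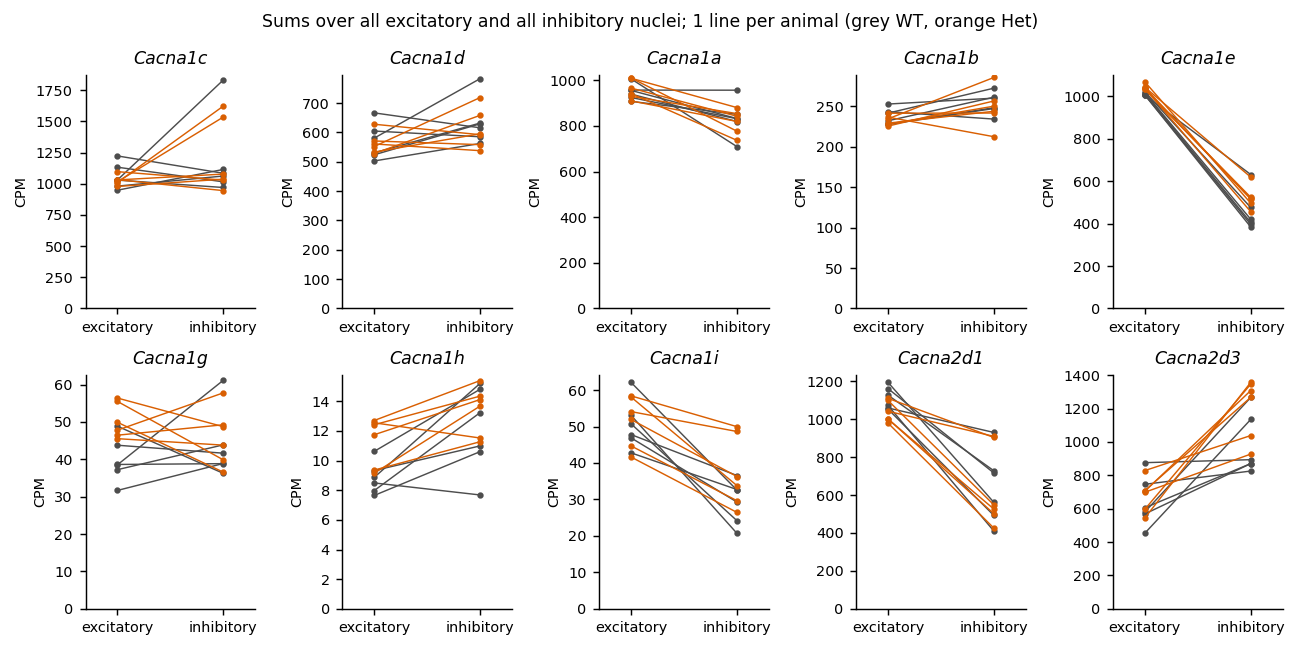
CPM of each subunit summed over all excitatory and all inhibitory nuclei (horizontal axis) of each animal, with 1 line per animal, grey WT and orange Het; vertical axes start at 0. Lines fall in 12 of 12 animals for Cacna1e, Cacna2d1, Cacna1i and Cacna1a and rise in 12 of 12 for Cacna2d3.

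Other genes of the pathway were counted from lists that hold none of the 10. Of 9 other channel subunits 6 were tested between inhibitory and excitatory nuclei, 1 was higher and 3 were lower in inhibitory nuclei. The higher gene was Cacna2d2, encoding alpha2delta-2, which had 5.77, 7.45 and 10.6 CPM in excitatory and 74.4, 91.9 and 120 CPM in inhibitory nuclei (log2 fold change 3.61, SE 0.08, edgeR adjusted p = 8.48e-23). The lower genes encode cytoplasmic beta subunits, Cacnb4 (-0.65), Cacnb1 (-0.59) and Cacnb3 (-0.42). Of 8 gamma subunit genes, most of which encode auxiliary subunits of AMPA receptors, 6 were tested, and Cacng4 (1.93), Cacng5 (1.76), Cacng7 (0.63) and Cacng2 (0.26) were higher and Cacng3 (-0.80) lower. Of 7 RGK and Stac regulators 3 were tested, with Stac2 (1.71) and Stac (1.33) higher and Stac3 (-0.71) lower.

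Among 5 calcium-activated potassium channels, 3 were tested between inhibitory and excitatory nuclei, and Kcnn2, a small-conductance channel, was higher (0.53) while Kcnma1, the big-conductance channel, was lower (-0.92). Of 6 calcium release channels 5 were tested, with Itpr2 (1.04) and Ryr1 (0.67) higher and Ryr2 (-1.24) and Itpr1 (-0.58) lower. Ryr2 had 1433 to 1622 CPM in excitatory and 590 to 738 CPM in inhibitory nuclei. These directions hold for the sums over all nuclei of each kind and not for each class within them.

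Het and WT animals were then compared within each class. In 140 tests of the 10 genes over 18 sums of nuclei, edgeR called 0, where 13 (9.29%) had an unadjusted p under 0.05, against 6.54% of all 94462 tests of genes in these sums. DESeq2, run without the filter on low counts used for edgeR, also called 0, with 12 of 180 unadjusted p under 0.05 (6.67%), against 1.48% of all its 461000 tests, which include genes with very few counts. The exact permutation test over animals on CPM had 15 of 140 (10.7%) under 0.05, against 6.60% of all tests, and a smallest adjusted p of 0.152. With 6 against 6 animals that test cannot go below an unadjusted p of 0.00216. Over all genes, edgeR called 0.171% in all excitatory, 0.248% in all inhibitory, 0.47% in L6 CT-like, 0.0765% in L2/3 IT-like, 0.0945% in L4/5 IT-like and 0.015% in L5 NP-like nuclei. The share was 0.0799% in DG-like, 0.0909% in Pvalb-like, 0.104% in Sst-like and 0.0949% in astrocyte-like nuclei and 0% in the other 8 classes, so 0 calls among the 10 genes was close to the share of all genes.

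The fold changes were small where the counts were high. The median log2 fold change over the 140 tests was -0.03, and the median standard error of the 10 genes in all excitatory nuclei was 0.06. Cacna1c, Cacna1d, Cacna1a, Cacna1b and Cacna2d3 had medians of -0.09, -0.04, 0.07, -0.04 and 0.10 over the classes tested. Astrocyte-like and fibroblast-like sums had 5 and 4 WT animals with enough nuclei, and their standard errors were the largest. In OPC-like nuclei the median of 7 genes tested was -0.48, with Cacna2d3 at 353, 619 and 711 CPM in WT and 321, 433 and 500 CPM in Het (-0.48, SE 0.17, edgeR adjusted p = 0.480) and Cacna1e at -0.49 (SE 0.23, adjusted p = 0.638). In oligodendrocyte-like nuclei the median of 5 was -0.46, with Cacna1d at -0.78 (SE 0.30, adjusted p = 0.996). Excitatory marker RNA in the same nuclei was at 32.8, 103 and 289 CPM in WT and 10.1, 40.3 and 75.9 CPM in Het OPC-like nuclei, and at 28.5, 55.2 and 134 CPM in WT and 24.5, 33.1 and 52.7 CPM in Het oligodendrocyte-like nuclei, and its part in these values was not tested. Genes under the low-count filter were not tested, which left Cacna1h with only the 2 sums over all excitatory and all inhibitory nuclei, Cacna1i with 7 and Cacna1g with 8 of the 16 classes.

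Cacna1g came closest to a call. In all excitatory nuclei it had 31.7, 38.6 and 48.9 CPM in WT and 45.5, 48.8 and 56.4 CPM in Het animals, ranges that overlap (log2 fold change 0.32, SE 0.09, edgeR adjusted p = 0.175). Its L4/5 IT-like levels did not overlap, as for 0.536% of all genes tested in that class, at 43.5, 59.2 and 62.3 CPM in WT and 65.3, 80.3 and 101 CPM in Het (0.48, SE 0.14, adjusted p = 0.218, exact permutation p = 0.00216, adjusted 0.152). It was higher in Het in 7 of 8 classes tested, by 0.66 (SE 0.27) in Car3-like, 0.38 (SE 0.20) in L2/3 IT-like and 0.35 (SE 0.17) in L5 NP-like nuclei, and lower only in Vip-like nuclei (-0.20, SE 0.26). These classes come from the same animals, so their signs are not independent. Without the low-count filter the excitatory difference was called (0.34, SE 0.08, adjusted p = 0.0115), a setting under which edgeR called 169 of all genes, or 0.434%, in place of 24.

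Cacna1e had the other pair of groups that did not overlap, in all excitatory nuclei, where 0.577% of all genes tested did not. In all excitatory nuclei it had 1005, 1010 and 1022 CPM in WT and 1033, 1039 and 1069 CPM in Het, a difference of 0.02 (SE 0.04) on the log2 scale with an edgeR adjusted p of 0.946. Cacna1h had 7.65, 8.68 and 10.6 CPM in WT and 9.15, 12.1 and 12.7 CPM in Het excitatory nuclei (0.35, SE 0.12, adjusted p = 0.387). Cacna1i in MSN-like nuclei had 22.3, 40.0 and 66.9 CPM in WT and 35.9, 66.7 and 92.6 CPM in Het (0.66, SE 0.28, adjusted p = 0.972). None of these passed the test.

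The alpha2delta genes were likewise not called. Cacna2d1 had negative values in 14 of 15 classes, with a median log2 fold change of -0.11, but these classes share the same animals. In all excitatory nuclei it had 1054, 1100 and 1195 CPM in WT and 980, 1022 and 1110 CPM in Het (-0.12, SE 0.06, edgeR adjusted p = 0.622). Cacna2d3 in all inhibitory nuclei had 825, 882 and 1266 CPM in WT and 927, 1287 and 1357 CPM in Het (0.29, SE 0.11, adjusted p = 0.626), and this was called only without the low-count filter (0.31, SE 0.07, adjusted p = 0.00295), where 133 of all genes were called, or 0.385%, in place of 28. With the 3 animals left out it was 0.37 (SE 0.11, adjusted p = 0.143). MSN-like nuclei, the class with the highest Cacna2d3 (mean 3163 CPM), made up 9.01, 10.7 and 19.5% of the inhibitory nuclei of WT animals (lowest, median, highest; 40 to 94 nuclei) and 11.4, 21.7 and 24.3% of those of Het animals (87 to 253 nuclei). Within MSN-like nuclei the Cacna2d3 difference was -0.02 (SE 0.10), and the part of the MSN-like share in the difference of the sum was not tested. In Sst-like nuclei Cacna2d3 had 1377, 1582 and 1691 CPM in WT and 1451, 1839 and 1938 CPM in Het (0.17, SE 0.08, adjusted p = 0.745).

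**Figure D5:**
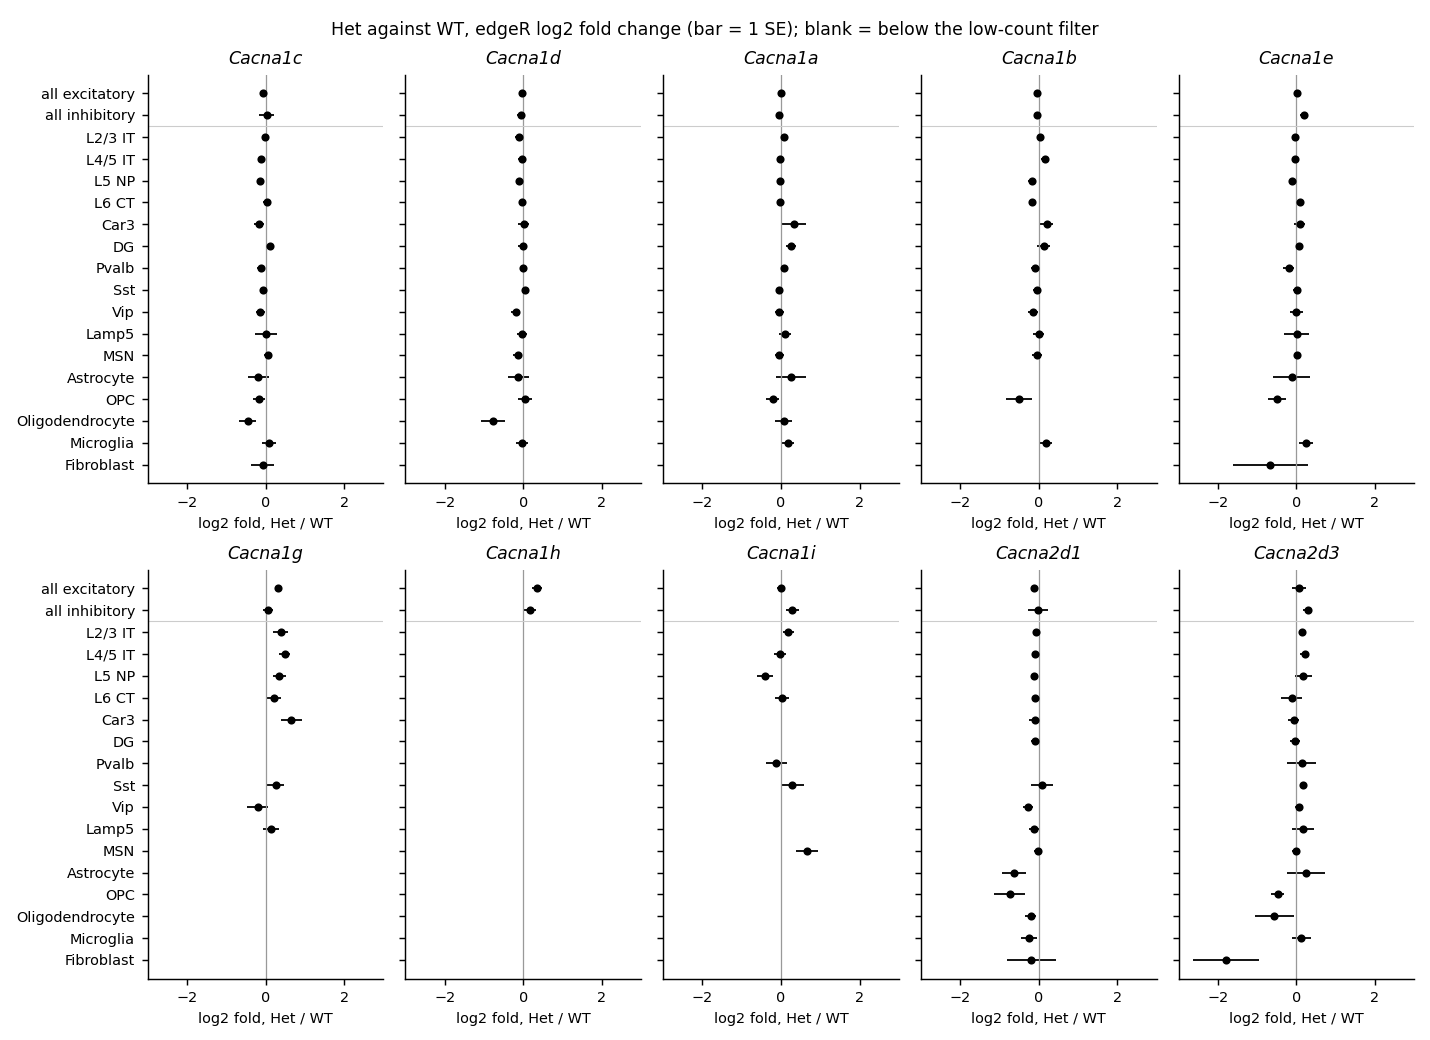
Log2 fold change of Het against WT (horizontal axes, edgeR, bars 1 SE) of the 10 subunits in all excitatory and all inhibitory nuclei and in 16 classes; positions left blank were under the low-count filter. No value passed the test, and the Cacna1g points lie above 0 in 7 of 8 classes, which share the same animals.

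The genotype effect was also compared between the sexes. The interaction of sex and genotype was not called in any of the 140 tests (edgeR, smallest adjusted p 0.342, 10 or 7.14% with an unadjusted p under 0.05, against 4.83% of all tests of genes). That smallest value was Cacna2d3 in L2/3 IT-like nuclei, where the effect in males minus that in females was -0.50 (SE 0.15) on the log2 scale. WT males had 862 to 1077 CPM and Het males 798 to 1019 CPM, while WT females had 756 to 845 CPM and Het females 972 to 1186 CPM. With 3 animals per sex and genotype the female groups did not overlap, as for 13% of all genes tested in that class, and the male groups did, where 12.3% of genes did not.

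The other genes of the pathway gave 1 call between genotypes. Ryr3, a calcium release channel, was higher in all inhibitory nuclei of Het animals, at 319, 386 and 508 CPM in WT and 462, 586 and 640 CPM in Het (log2 fold change 0.53, SE 0.10, edgeR adjusted p = 0.0176). It was 0.58 (SE 0.11, adjusted p = 0.0116) with the 3 animals left out, but was not called under the stricter gate (0.45, adjusted p = 0.342), with no upper limits (0.57, 0.334) or on the omission of WT male 1, WT male 3, WT female 3, Het male 1, Het male 2 or Het female 2 (largest adjusted p = 0.0844). Ryr3 was at 1781, 2072 and 2767 CPM in MSN-like nuclei against at most 572 CPM in Pvalb-like, Sst-like, Vip-like and Lamp5-like nuclei, and the MSN-like shares given above accompany this sum too. Within MSN-like nuclei the genotype difference was 0.09 (SE 0.11), and the part of the share was not tested. The call was 1 of 62 tests of calcium release channels. Other channel subunits (60 tests), gamma subunits (55), RGK and Stac regulators (7) and calcium-activated potassium channels (43) gave 0 calls in either direction.

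The genes with levels most like those of a subunit were sought over the 16 classes among 14366 genes, by the Pearson correlation of log2(mean CPM + 1). For Cacna1c these were Dbn1 (0.93), Klhl7 (0.92) and Pitpnm2 (0.90), and for Cacna1d Hectd2 (0.96), Mapk8ip2 (0.95) and Celf4 (0.95). Cacna1a was followed most closely by Scn1a (0.92), a sodium channel of fast-spiking neurons, Mcf2l (0.91) and Mapk10 (0.90), and Cacna1b by Kif5c (0.95), Cnnm1 (0.95) and Ttc3 (0.94). For Cacna1e they were Gm37928 (0.98), Gm26871 (0.97) and Chrm1 (0.95), and for the T-type pores A830082K12Rik (0.91), Cd200 (0.89) and Flot2 (0.86) beside Cacna1g, Gm10848 (0.83), 4933412O06Rik (0.80) and Pdzd2 (0.80) beside Cacna1h, and Camkk2 (0.94), Ociad2 (0.94) and E130304I02Rik (0.92) beside Cacna1i.

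Cacna2d1 was closest to Arpp21 (0.91), Gm43490 (0.88) and Gm3510 (0.85), and Cacna2d3 to Iqcj (0.91), Hs6st3 (0.85) and 6330403K07Rik (0.79). Gm43490 overlaps Cacna2d1, which lies on chromosome 5 (GRCm38, 15934691 to 16374511, plus strand), on the same strand, and Gm3510 lies 1.29 kb from it. Genes on the same strand that overlap cannot be told apart by the strand of a read, and since the sources used here do not give the strand setting of the counting, nor can those on opposite strands with certainty. Among the 10 genes, Cacna1e, Cacna1g and Cacna1i overlap no other annotated gene. These correlations run over classes of the same animals and are a description. They include the non-neuronal classes, and values can change without those. Cacna1d and Cacna1b correlated at 0.85 over the 16 classes and -0.33 over the 11 neuronal ones. For Cacna1c and Cacna1e the values were 0.86 and 0.76, respectively.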

How the data were processed

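Estimated counts of UMIs per gene and nucleus, 1 matrix per animal, were deposited by the authors, who mapped reads to mm10 with ScaleRna and called nuclei with CellFinder. The submitters' processing notes name Seurat 4.3.0 and DESeq2 1.38.3. Of the nonzero values, 92.6% were whole, and sums were rounded. The strand setting is not given in the sources used here.

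Nuclei with 800 to 6000 UMIs, 300 to 3000 genes, at most 1% mitochondrial counts and log genes divided by log UMIs at or above 0.9 were kept, after the limits of the study, and the upper limits and the ratio removed 43862 barcodes. Without these upper limits and the ratio, 55659 excitatory and 13514 inhibitory nuclei were gated, against 21022 and 8125 with them. Excitatory nuclei thus lost the larger share. The lowest barcode held 1500 UMIs. With these limits and its own removal of doublets the study reports more nuclei of this age than there were deposited barcodes. The nuclei used here are therefore not the set of the study. The 5% of nuclei per animal with the highest Scrublet score were removed as doublets. Marker UMIs were pooled over each nucleus and its 29 nearest neighbours (50 principal components of 3000 genes, without the genes studied), and classes were gated on them. Classes with at least 10 nuclei in at least 3 animals per genotype were used.

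Counts were summed per animal and class and tested with edgeR 4.0.16 (quasi-likelihood, TMM, filterByExpr, Benjamini-Hochberg over all genes tested, R 4.3.3), with genotype as the only term. DESeq2 1.42.0, RLE scaling, no low-count filter, a sex term, a replicate block, a stricter gate, no doublet removal, no upper limits and leaving out each animal were alternatives. The omission of 3 animals together was added after seeing the data. The edgeR step was tested on simulated data. Named genes were the 10 subunits, the other listed channel genes when called, and the 3 genes closest to each subunit. The 10 genes and the lists were chosen with earlier results of these data known. Depth limits the classes with few nuclei.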

Additional observations from a re-analysis of the deposited data

Results flagged for a closer look

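In each genotype of 4 to 10 animals the highest or lowest animal was compared with the others, and a value whose gap to its nearest neighbour was over Dixon's 95% limit was marked. Of 280 groups examined 19 were marked, where chance marks about 1 in 20, or 14. WT male 2 held 6 of the 19. It is the animal with the most unnamed inhibitory nuclei (36.8%).

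In the sum of all inhibitory nuclei, WT male 2 was highest of the WT animals for Cacna1c (1832 CPM against 970 to 1115 in the other 5), Cacna1d (783 CPM), Cacna1e (631 CPM) and Cacna1g (61.1 CPM). It was also highest for Cacna1e in Lamp5-like nuclei (1024 CPM against 290 to 500) and for Cacna1a in L2/3 IT-like nuclei (1228 CPM against 1095 to 1141).

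Among the other pores, Het male 1 was lowest for Cacna1a in L4/5 IT-like nuclei (1104 CPM) and highest for Cacna1e in all excitatory (1069 CPM) and in L2/3 IT-like nuclei (1060 CPM). WT male 1 was highest for Cacna1a in OPC-like (795 CPM) and Cacna1e in Sst-like nuclei (485 CPM), and WT male 3 for Cacna1c in astrocyte-like nuclei (967 CPM against 529 to 586).

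For Cacna2d1 the high animals were WT male 3 in L6 CT-like (870 CPM), Het female 2 in DG-like (1076 CPM) and WT female 3 in Vip-like nuclei (486 CPM). For Cacna2d3 they were Het male 3 in astrocyte-like (1446 CPM), WT female 1 in microglia-like (1001 CPM) and, in L6 CT-like nuclei, WT male 1 (162 CPM) and Het female 1 (119 CPM).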

How the results depend on the processing

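Calls between genotypes stayed at 0 under DESeq2, RLE scaling, a sex term, the stricter gate, no doublet removal, no upper limits, the omission of each animal and the omission of 3 animals, which was chosen after seeing the data. With no low-count filter 2 were called, Cacna1g in excitatory (log2 fold change 0.34) and Cacna2d3 in inhibitory nuclei (0.31), where 169 and 133 of all genes were called in place of 24 and 28. Over the alternatives Cacna1g ran from 0.19 to 0.54 in L4/5 IT-like, 0.20 to 0.84 in Car3-like and 0.25 to 0.67 in L5 NP-like nuclei. Cacna1i in MSN-like nuclei ran from 0.18 to 0.86. Same-numbered WT and Het animals of a sex did not pair, since their deviations correlated between -0.14 and 0.09 over 14043 genes, and with the replicate block 0 were called.

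Between inhibitory and excitatory nuclei 6 genes were called, 4 in WT animals alone or with the 3 animals left out and 5 or 6 otherwise. Leaving out 1 animal at a time gave 5 to 6, and the median log2 fold change between genotypes was then -0.04 to -0.01. Cacna1h reversed to -0.033 with no upper limits, and was not called under DESeq2 (0.27), with no low-count filter (0.20) or under the stricter gate (0.16).

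Of the neighbouring classes, 33 pairs differed, against 0 in WT animals alone, where 6 animals give a larger smallest p, and 17 with the 3 animals left out, which leaves 9. Of 900 levels under the alternatives 55 moved by over 1 SD, 43 of them with no upper limits, of which 19 by over 1.5 times, chiefly in non-neuronal classes. Depth limits the T-type pores and the classes with few nuclei.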
